A study of Mus musculus with 8 samples.

Results

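Axon guidance ligands and their receptors were followed in sorted mouse brain endothelium at embryonic day E14.5. Members were taken by gene symbol from the table of raw counts: the semaphorins of classes 3 to 7, the plexins, the Eph receptors and their ephrin ligands, Slits and Robos, netrins and Unc5 receptors. Left out were Sema3g, Plxnd1, Ephb4, Efnb2 and Unc5b, genes known for their part in blood vessels. The rule found 61 of the 24421 genes in the table, 33 of them ligands and 27 receptors. The remaining row is Plxna4os1, an RNA from the strand opposite the plexin gene Plxna4, which is no receptor.

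The groups were 4 knockout and 4 heterozygous libraries for Flvcr2, on the C57Bl6 strain. Flvcr2 encodes a membrane transporter, and its mutant allele makes cells express GFP. The sort kept cells with both GFP and CD31, an endothelial adhesion protein. Both genotypes therefore carry the GFP-expressing mutant allele, and no wild-type library was analysed here. No label names the embryo behind a library, and the p-values therefore cover the spread among libraries, some of which can be technical.

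Guidance molecules steer growing axons by attraction or repulsion, and many of them also act on the tips of growing vessels. Ephrins are ligands fixed to the surface of one cell that bind Eph receptor kinases on its neighbour: A ephrins hang on a lipid anchor and B ephrins span the membrane. Semaphorins are secreted or membrane-bound ligands of plexins, and those of class 3 mostly bind through neuropilin co-receptors. Netrins signal through Dcc, neogenin and Unc5 receptors, and Slits through Robo receptors. Neurons and glial precursors of the embryonic brain express many of the same genes.

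The libraries held 12.1 to 35.9 M counts in knockout and 9.11 to 22.6 M in heterozygous samples. Flvcr2, listed under its older symbol Mfsd7c, was at 227 to 393 CPM (counts of a gene per M counts of its library) in knockout and 276 to 578 CPM in heterozygous libraries, so the groups overlapped (log2 fold change -0.50, edgeR adjusted p = 0.209). A transcript of the mutant allele could count towards this symbol too, so the value is no check of the genotypes. All 12 endothelial marker genes were present, at a summed 10516 to 13440 CPM in knockout and 7548 to 12695 CPM in heterozygous libraries, and 1 of them rose, the sialomucin gene Emcn (2.28-fold; adjusted p = 0.00321). Transcripts of other cell types were present as well. The 20 neuron markers summed to 110 to 356 CPM in knockout and 358 to 2208 CPM in heterozygous libraries, none at 0 throughout, and 9 of 20 fell. Of the 13 radial glia markers 3 fell (1340 to 1589 CPM summed in knockout, 1350 to 1470 CPM in heterozygous libraries). Most of this sum was Vim (1059 CPM in knockout, 868 CPM in heterozygous libraries) and Nes (264 and 206 CPM), neither of them called. The list's median log2 fold change was -1.89. Of 13 pericyte and smooth muscle markers 2 fell (363 to 529 CPM in knockout, 367 to 559 CPM in heterozygous libraries). Foxf2, not called, was the largest part of that sum (354 CPM in knockout, 276 CPM in heterozygous libraries), and the list's median was -1.65. Of 16 microglia and macrophage markers 2 fell (175 to 1113 CPM in knockout, 674 to 1893 CPM in heterozygous libraries), and of 9 erythroid markers 2 (17.6 to 51.8 CPM in knockout, 228 to 611 CPM in heterozygous libraries), with Hba-a1, Hba-a2, Hbb-bs and Hbb-bt at 0 in every library. Of 12 fibroblast markers 1 fell (118 to 775 CPM in knockout, 316 to 482 CPM in heterozygous libraries). The 6 markers of oligodendrocyte precursors summed to 2.35 to 13.3 CPM in knockout and 9.03 to 44.9 CPM in heterozygous libraries. A neuronal score, in which the neuron and radial glia lists' mean log2 CPM weighed equally, was 2.78, 1.22, 3.48 and 1.78 in knockout libraries 1 to 4 and 5.47, 3.49, 4.62 and 3.67 in heterozygous libraries 1 to 4. In bulk samples, fewer cells of a type and less RNA per cell cannot be told apart. The part of these transcripts in the results was not tested, other than by fits with such a score. Every knockout library scored below every heterozygous one, so those fits do not cleanly separate genotype from the score. Knockout 1 and heterozygous 2 had 1 and 0 counts of Xist, made from the silent X of female cells, and 914 and 331 counts of the Y-linked Ddx3y. Heterozygous 3 and 4 had counts of both, 442 and 861 of Xist and 28 and 56 of Ddx3y. Knockout 4 had 1135 counts of Xist and 6 of Ddx3y. The source of such mixed counts was not tested.

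Of the 61 genes, 51 passed the filter on low counts and were tested. Of these, 2 rose and 4 fell in knockout cells at an edgeR adjusted p under 0.05. That is 11.8% of the members tested, beside 9.55% of all 13540 genes tested (749 higher, 5.53%, and 544 lower, 4.02%). The risers were the semaphorin Sema3f and the receptor Epha2, and the genes that fell were the receptor Epha4, the ephrins Efna2 and Efna4 and the semaphorin Sema6c. The median log2 fold change of the tested members was -0.76, against -0.03 over all tested genes. Some members, such as Sema5b and Robo2, passed the filter on the counts of their heterozygous libraries. These 2 had 0 counts in 3 and in 2 knockout libraries. The filter treats both genotypes alike, and its part in the members' median was not tested. Of the 28 ligands tested 1 rose and 3 fell (median -0.60), and of the 22 receptors 1 rose and 1 fell (median -0.94). The 10 members under the filter were Sema3d, Sema3e, Sema4f, Plxnb3, Epha6, Epha10, Slit1, Ntn5, Unc5c and Unc5d. Each of them averaged fewer CPM in knockout than in heterozygous libraries. These averages rest on few counts, from 7 (Epha6) to 162 (Unc5d) over the 8 libraries together. The same share among all genes under the filter was not counted.

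**Figure D1:**
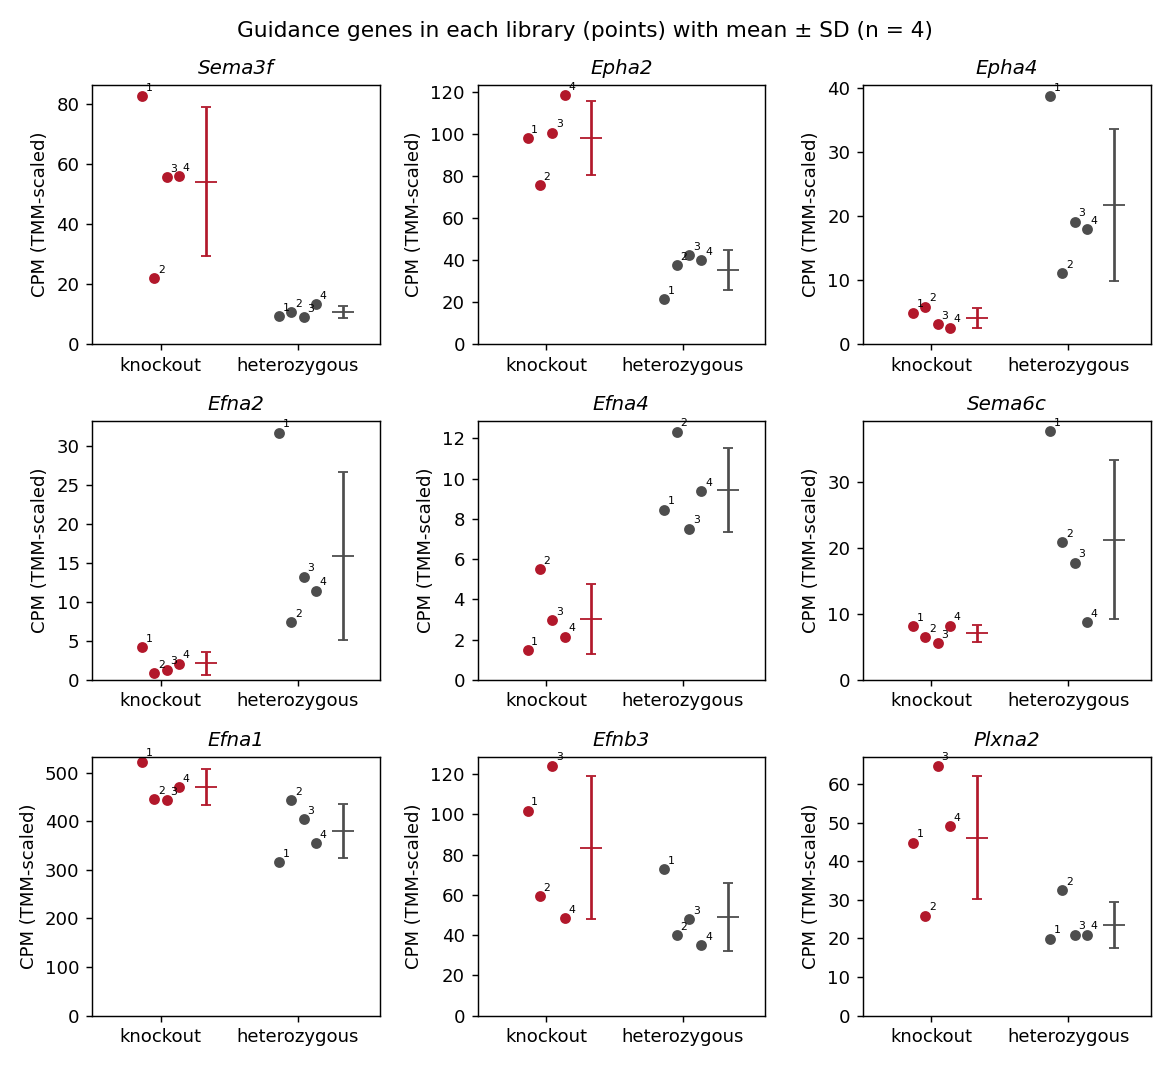
CPM of 9 guidance genes in each of 4 knockout (red, left) and 4 heterozygous (grey, right) libraries. Points are libraries, numbered by replicate, and bars are mean ± SD. Sema3f, Epha2 and Efna1 had every knockout library above every heterozygous one, and Epha4, Efna2, Efna4 and Sema6c every knockout library below.

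The start regions of the Eph and ephrin genes that changed are shown for reading beside these values. RefSeq's table on GRCm38.p6 gives 250 bases before and 50 after each start, 5′ to 3′ on the strand of the gene. Capitals mark the cAMP response element TGACGTCA and the GC box GGGCGG, searched on both strands, so that a GC box on the other strand reads CCGCCC. Epha2 rose and the other 3 genes fell.
Epha2, chr4:141300971-141301270, plus strand: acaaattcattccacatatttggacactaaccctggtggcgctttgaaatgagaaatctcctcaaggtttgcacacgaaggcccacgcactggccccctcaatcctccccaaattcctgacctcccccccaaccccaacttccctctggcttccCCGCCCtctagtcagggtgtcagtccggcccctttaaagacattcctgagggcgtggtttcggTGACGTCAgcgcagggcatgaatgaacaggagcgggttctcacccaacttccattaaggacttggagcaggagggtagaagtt
Epha4, chr1:77515039-77515338, minus strand: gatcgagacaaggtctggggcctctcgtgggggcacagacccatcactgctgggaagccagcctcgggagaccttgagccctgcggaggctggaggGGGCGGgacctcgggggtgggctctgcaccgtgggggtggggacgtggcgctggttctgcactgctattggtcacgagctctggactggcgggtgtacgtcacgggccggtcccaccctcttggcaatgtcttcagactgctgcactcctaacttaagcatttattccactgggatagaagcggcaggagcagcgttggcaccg
Efna2, chr10:80179232-80179531, plus strand: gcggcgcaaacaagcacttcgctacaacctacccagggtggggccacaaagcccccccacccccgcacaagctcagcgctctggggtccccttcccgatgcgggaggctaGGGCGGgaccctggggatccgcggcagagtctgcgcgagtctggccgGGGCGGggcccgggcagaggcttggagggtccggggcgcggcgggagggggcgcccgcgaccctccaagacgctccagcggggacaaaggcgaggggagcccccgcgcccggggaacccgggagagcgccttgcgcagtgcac
Efna4, chr3:89337979-89338278, minus strand: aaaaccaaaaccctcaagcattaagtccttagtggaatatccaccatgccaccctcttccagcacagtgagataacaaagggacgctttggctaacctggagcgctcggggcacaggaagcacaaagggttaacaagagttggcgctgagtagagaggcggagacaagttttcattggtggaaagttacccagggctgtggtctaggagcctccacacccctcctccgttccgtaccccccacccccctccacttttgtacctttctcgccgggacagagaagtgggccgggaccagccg
TGACGTCA occurred 1 time in the Epha2 window and in none of the other 3. It was present in 1.79% of all 32851 windows in the table and in 1 of the 43 tested members that the table holds. The GC box occurred 1, 1, 2 and 0 times in the windows of Epha2, Epha4, Efna2 and Efna4, and in 35.7% of all windows and 34 of the 43 members. The E-box CACGTG was in none of the 4 windows (7.15% of all), nor was the ATF4 composite site TGATGNAAN (3.95% of all), while CCAAT was in those of Epha4 and Efna4 (37.4% of all). These are matches of letters, chosen after the sequences were seen, and show no binding.

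Epha2 and Epha4, receptors of the same family, changed in opposite directions. Epha2, a receptor of ephrin-A1 that endothelial cells use, lies on chromosome 4 from 141301240 to 141329384 of GRCm38. It was at 97.8, 75.6, 100.4 and 118 CPM in knockout libraries 1 to 4, against 21.4, 37.4, 42.2 and 39.8 CPM in heterozygous libraries 1 to 4. The groups did not overlap, and heterozygous 1 was the lowest. Epha2 rose 2.78-fold (98.1 ± 17.6 CPM in knockout against 35.2 ± 9.42 CPM in heterozygous libraries, SD, n = 4 each; log2 fold change 1.48 ± 0.23, SE; edgeR adjusted p = 0.00424).

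Epha4, which binds ephrins of both classes and repels growth cones, lies on chromosome 1 from 77367185 to 77515088. It was at 4.86, 5.84, 3.07 and 2.54 CPM in knockout libraries 1 to 4, against 38.6, 11, 19.1 and 17.9 CPM in heterozygous libraries 1 to 4. Every knockout library was below every heterozygous one, and heterozygous 1, the library with the highest neuronal score, was also the highest here. Among knockout libraries the order differed: Epha4 was highest in knockout 2, which had the lowest neuronal score, and at 3.07 CPM in knockout 3, which had the highest. Epha4 fell 5.35-fold (4.08 ± 1.54 CPM in knockout against 21.7 ± 11.9 CPM in heterozygous libraries; log2 fold change -2.42 ± 0.43; edgeR adjusted p = 0.00806). Leaving out any 1 of the 8 libraries kept both calls. In a fit with the neuronal score as covariate the log2 fold change of Epha2 was 1.29 ± 0.34 (adjusted p = 0.152, and 6.57e-08 to 0.809 over 18 alternatives), and that of Epha4 -1.82 ± 0.71 (0.320, and 2.54e-06 to 0.925).

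Of the 9 EphA receptors 7 were tested, and besides Epha2 and Epha4 the genes Epha1, Epha3, Epha5, Epha7 and Epha8 were not called, with log2 fold changes between -1.83 and -0.18. Epha10 had 0 counts in every knockout library, against 1, 14, 2 and 1 counts in heterozygous libraries 1 to 4, too few to test. All 4 EphB receptors among the members were tested, and none was called by edgeR or DESeq2 or had an unadjusted p under 0.05. Ephb1 averaged 4.16 ± 5.79 CPM in knockout and 7.36 ± 5.01 CPM in heterozygous libraries, and Ephb6 2.60 ± 3.15 CPM in knockout and 3.53 ± 2.67 CPM in heterozygous libraries. Their libraries overlapped between genotypes.

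Among the ligands of these receptors, A ephrins differed from one another in level and in change. Efna1, the ephrin-A1 gene, was the most abundant of all members. It was at 523, 446, 444 and 470 CPM in knockout libraries 1 to 4, against 316, 443, 405 and 355 CPM in heterozygous libraries 1 to 4. The lowest knockout library was at 444 CPM and the highest heterozygous one at 443 CPM, so the groups were apart by a narrow margin. Efna1 was not called (log2 fold change 0.31 ± 0.14; edgeR adjusted p = 0.199). Efna1 alone held 32.4 to 43.2% of the members' summed CPM in knockout and 26.8 to 35.7% in heterozygous libraries.

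Efna2, a ligand known from the sorting of retinal axons in the midbrain, lies on chromosome 10 from 80179482 to 80190010. It was at 4.19, 0.871, 1.31 and 2.05 CPM in knockout libraries 1 to 4, against 31.7, 7.43, 13.2 and 11.4 CPM in heterozygous libraries 1 to 4. No knockout library reached the lowest heterozygous one. Efna2 fell 7.48-fold (2.11 ± 1.47 CPM in knockout against 16.0 ± 10.8 CPM in heterozygous libraries; log2 fold change -2.90 ± 0.59; edgeR adjusted p = 0.0142), and no single left-out library ended the call. In the fit with the neuronal score its log2 fold change was -1.35 ± 0.77 (adjusted p = 0.518, and 1.75e-05 to 0.995 over 18 alternatives), and without both knockout 2 and heterozygous 1 it was -2.09 (adjusted p = 0.0536).

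Efna4, which lies near Efna1 and Efna3 on chromosome 3 (89333390 to 89338028), was at 1.48, 5.49, 2.96 and 2.14 CPM in knockout libraries 1 to 4, against 8.45, 12.3, 7.51 and 9.38 CPM in heterozygous libraries 1 to 4. The groups did not overlap. Efna4 fell 3.14-fold (3.02 ± 1.75 CPM in knockout against 9.42 ± 2.08 CPM in heterozygous libraries; log2 fold change -1.65 ± 0.46; edgeR adjusted p = 0.0488). Leaving out a library ended the call in 7 of 8 cases, all but knockout 2, with log2 fold changes of -2.09 to -1.40. In the fit with the neuronal score it was -2.32 ± 0.67 (adjusted p = 0.174, and 0.00398 to 0.727 over 18 alternatives). Efna3 and Efna5 averaged under 3 CPM in both genotypes and were not called.

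B ephrins span the membrane and can signal back into the cell that carries them. Efnb3, the midline ephrin that stops corticospinal axons, was at 102, 59.3, 124 and 48.4 CPM in knockout libraries 1 to 4, against 72.8, 39.9, 47.9 and 35.1 CPM in heterozygous libraries 1 to 4. The groups overlapped, and in each genotype the library with the highest neuronal score, knockout 3 and heterozygous 1, was the highest. Efnb3 was not called (log2 fold change 0.77 ± 0.32; edgeR adjusted p = 0.159). In the fit with the neuronal score its log2 fold change was 1.78 ± 0.26 (adjusted p = 0.0239, and 0.0239 to 0.477 over 18 alternatives), and no other member was called there. Efnb1 averaged 18.9 ± 6.03 CPM in knockout and 25.4 ± 8.98 CPM in heterozygous libraries and was not called.

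Sema3f rose most among the members. It encodes a secreted semaphorin that binds neuropilin-2 and repels axons and, in other vascular beds, endothelial cells, and lies on chromosome 9 from 107681500 to 107710475. Sema3f was at 82.8, 22.0, 55.6 and 56.1 CPM in knockout libraries 1 to 4, against 9.31, 10.6, 8.88 and 13.3 CPM in heterozygous libraries 1 to 4. Every knockout library was above every heterozygous one, and the 4 heterozygous libraries lay close together. Sema3f rose 5.14-fold (54.1 ± 24.9 CPM in knockout against 10.5 ± 2.0 CPM in heterozygous libraries, SD, n = 4 each; log2 fold change 2.36 ± 0.35, SE; edgeR adjusted p = 0.00384). It remained called whichever library was left out, at log2 fold changes of 2.10 to 2.63. In the fit with the neuronal score it was 2.67 ± 0.51 (adjusted p = 0.0518, and 7.86e-09 to 0.440 over 18 alternatives).

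The other class 3 semaphorins among the members, secreted too, were at low levels. Sema3a, Sema3b and Sema3c averaged 0.631, 0.883 and 0.907 CPM in knockout and 1.08, 2.78 and 1.85 CPM in heterozygous libraries, and were not called. Of 6 class 4 semaphorins 5 were tested, and none was called by edgeR or DESeq2 or had an unadjusted p under 0.05. Sema4c, a ligand of plexin-B2, was at 20.6 to 34.3 CPM in knockout and 24.8 to 31.3 CPM in heterozygous libraries (log2 fold change -0.04 ± 0.20; edgeR adjusted p = 0.931), and Sema4d, a ligand of plexin-B1, averaged 5.03 ± 3.75 CPM in knockout and 6.87 ± 2.27 CPM in heterozygous libraries.

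Class 6 semaphorins span the membrane and bind A plexins, and here held both abundant members and one that fell. Sema6c was at 8.13, 6.45, 5.52 and 8.17 CPM in knockout libraries 1 to 4, against 37.6, 20.8, 17.7 and 8.71 CPM in heterozygous libraries 1 to 4. The groups were apart only by the gap between knockout 4 and heterozygous 4. Sema6c, on chromosome 3 from 95160457 to 95174024, fell 2.99-fold (7.07 ± 1.3 CPM in knockout against 21.2 ± 12.1 CPM in heterozygous libraries; log2 fold change -1.58 ± 0.40; edgeR adjusted p = 0.0346). Leaving out a library ended the call in 7 of 8 cases, all but heterozygous 4. The fit with the neuronal score gave -0.93 ± 0.65 (adjusted p = 0.594, and 0.00233 to 0.956 over 18 alternatives).

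Sema6a and Sema6d were more abundant and were not called. Sema6a, a ligand of plexin-A2 and plexin-A4, was at 135, 100.2, 108 and 136 CPM in knockout libraries 1 to 4, against 116, 185, 231 and 179 CPM in heterozygous libraries 1 to 4. The groups overlapped through heterozygous 1 (log2 fold change -0.57 ± 0.21; edgeR adjusted p = 0.112), while without that library, or by DESeq2, Sema6a was called (adjusted p = 0.0360 and 0.0454, and up to 0.780 over 18 alternatives). Sema6d, a ligand of plexin-A1, averaged 117 ± 13.8 CPM in knockout and 87.9 ± 24.9 CPM in heterozygous libraries (adjusted p = 0.257). Neither Sema7a nor Sema6b was called (log2 fold change 0.37 and 0.32). Sema5b, chosen after its values were seen, was at 1.12, 0, 0 and 0 CPM in knockout libraries 1 to 4 and at 5.89, 2.55, 9.73 and 2.39 CPM in heterozygous libraries 1 to 4. Its groups did not overlap, and it was not called (edgeR adjusted p = 0.0959).

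Of the plexins among the members, receptors of semaphorins, 7 of 8 were tested and none was called by edgeR. Plxnd1, which the rule left out, is given further below. DESeq2 called Plxna2 and Plxnb1, the same member plexins that had an unadjusted p under 0.05 in edgeR. Plxna2 came nearest. It was at 44.8, 25.9, 64.7 and 49.1 CPM in knockout libraries 1 to 4, against 19.9, 32.5, 20.9 and 20.9 CPM in heterozygous libraries 1 to 4. Knockout 2 and heterozygous 2 made the groups overlap (log2 fold change 0.97 ± 0.28; edgeR adjusted p = 0.0526). DESeq2 called it (adjusted p = 0.0132), as did edgeR without knockout 2 (0.0157) or without heterozygous 2 (0.0456), and its adjusted p reached 0.772 over 18 alternatives. Plxna1 averaged 35.2 ± 13.6 CPM in knockout and 35.6 ± 12.2 CPM in heterozygous libraries.

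The B plexins bind class 4 semaphorins. Plxnb2 averaged 41.2 ± 12.2 CPM in knockout and 51.2 ± 12.1 CPM in heterozygous libraries. Plxnb1 was at 12.7, 6.62, 4.21 and 13 CPM in knockout libraries 1 to 4, against 18.0, 16.1, 25.0 and 16.0 CPM in heterozygous libraries 1 to 4. Its groups did not overlap, and it was not called (log2 fold change -1.04 ± 0.37; edgeR adjusted p = 0.109). The antisense row Plxna4os1 averaged 9.71 ± 2.70 CPM in knockout and 4.71 ± 2.22 CPM in heterozygous libraries and was not called. Whether its exons overlap those of Plxna4 was not checked. Where they do, reads of the 2 genes could not be told apart without strand.

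Among the members, netrins, Slits, Robo2, Robo3, Unc5c and Unc5d averaged under 10 CPM in both genotypes. Of 4 netrins 3 were tested, and none was called by edgeR or DESeq2 or had an unadjusted p under 0.05. Ntn1, which attracts or repels axons at the midline, averaged 1.59 ± 1.83 CPM in knockout and 5.15 ± 3.51 CPM in heterozygous libraries, and Ntn3 averaged 2.25 ± 1.68 CPM in knockout and 4.68 ± 1.52 CPM in heterozygous libraries. Exons of Ntn3 overlap Tbc1d24 on the same strand, so its counts are uncertain. Unc5a, a netrin receptor whose exons overlap Hk3 on the other strand, was at 25.3, 0, 8.54 and 15.3 CPM in knockout libraries 1 to 4, against 11.1, 4.67, 9.78 and 2.61 CPM in heterozygous libraries 1 to 4. The knockout libraries spread around all heterozygous ones (edgeR adjusted p = 0.652).

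Robo1, a Slit receptor, was at 11.8 to 17.6 CPM in knockout and 9.43 to 17.4 CPM in heterozygous libraries (log2 fold change 0.13 ± 0.27; edgeR adjusted p = 0.807). Robo2, a second Slit receptor, was at 1.28, 0, 0 and 0.491 CPM in knockout libraries 1 to 4, against 4.65, 1.17, 6.19 and 6.99 CPM in heterozygous libraries 1 to 4. It was not called by edgeR (log2 fold change -3.37 ± 1.19; adjusted p = 0.105), while DESeq2 called it (0.0177). The ligands Slit2 and Slit3 averaged 2.77 ± 1.76 and 2.02 ± 2.26 CPM in knockout and 4.33 ± 1.79 and 1.29 ± 1.18 CPM in heterozygous libraries. Neither was called.

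**Figure D2:**
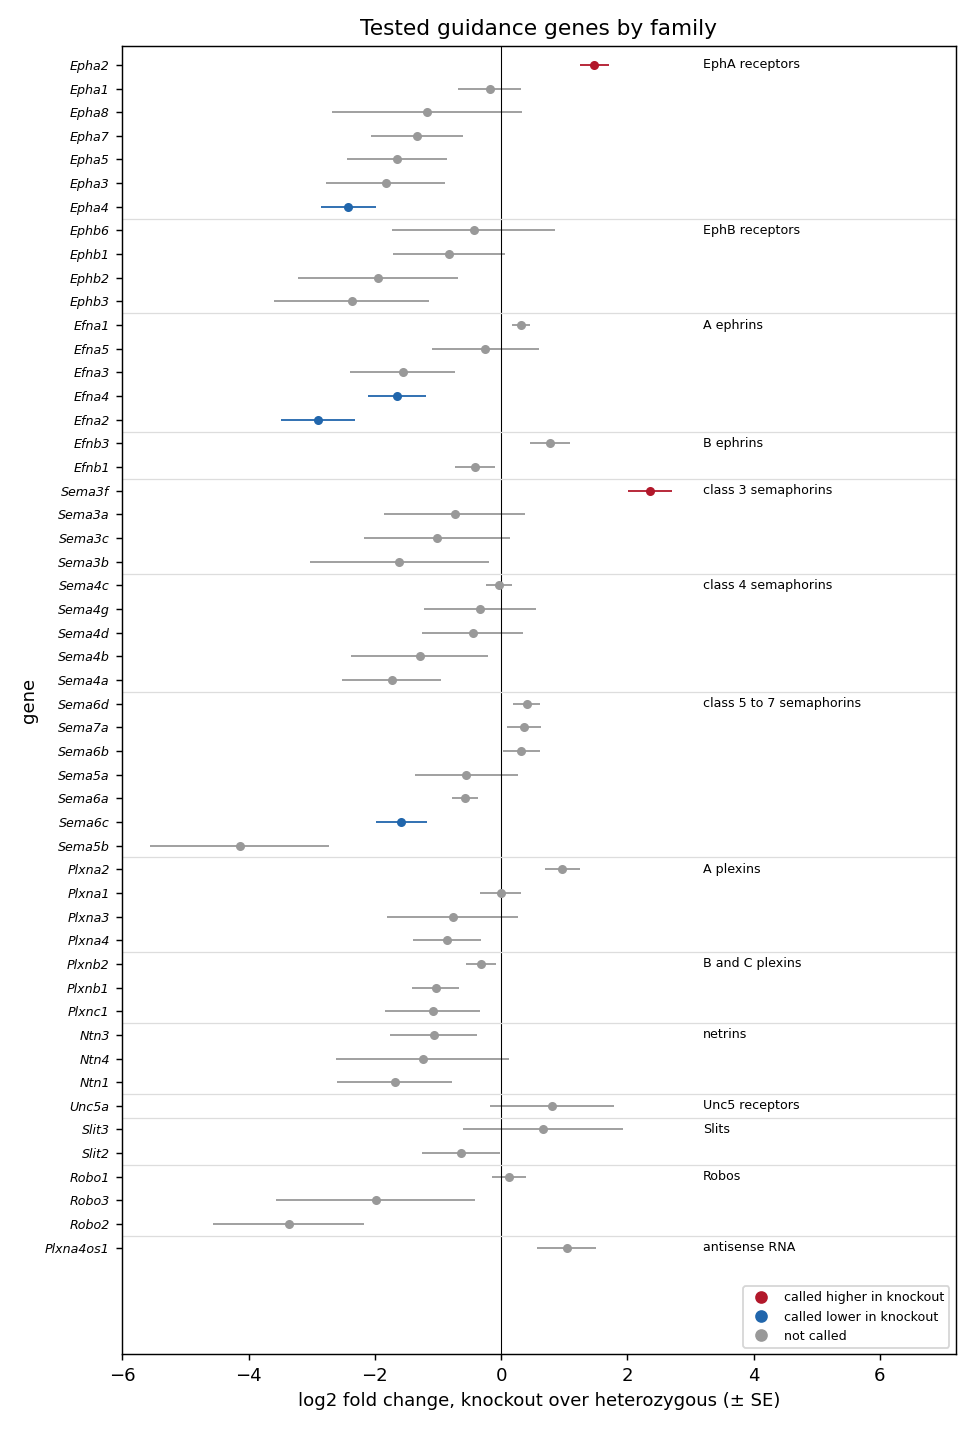
Log2 fold change of knockout over heterozygous libraries (± SE, 4 libraries each) for the 51 tested members, one line each, grouped by family. Red and blue mark members called higher (2) and lower (4) in knockout, and grey marks the 45 not called, most of which lie left of 0 with wide errors.

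Split at a mean of 10 CPM over the 8 libraries, 18 of the tested members lay at or above that level. Of these, 9 had a positive and 9 a negative log2 fold change, with a median of 0.06. The median of all 8899 tested genes at this level was 0.06 as well. Of the 18 members, 2 rose and 2 fell (22.2% called, beside 12.3% of all tested genes at this level). The 33 tested members below this level had a median SE of 0.91. Of these, 2 were called, Efna2 and Efna4 (6.06%, beside 4.31% of all tested genes below it). Of the 33, 3 had a positive and 30 a negative log2 fold change, with a median of -1.17. All 4641 tested genes below this level had a median of -0.39, with 1579 positive and 3062 negative. Some of these members passed the filter on the counts of their heterozygous libraries, and the filter's part in this direction was not tested. In 10 of the 51 tested members (19.6%) the genotypes did not overlap, 3 higher and 7 lower in knockout, beside 17.6% of all tested genes (9.7% higher and 7.9% lower). The 3 were Sema3f, Epha2 and Efna1, and the 7 were Epha4, Efna2, Efna4, Sema6c, Plxnb1, Sema5b and Plxnc1. Among the 45 members not called, 7 had an unadjusted edgeR p under 0.05: Plxna2, Sema5b, Robo2, Plxnb1, Sema6a, Efnb3 and Plxna4os1. With the called ones counted, 13 of the 51 tested members had such a p, beside 3473 of all 13540 tested genes. DESeq2 called 12 of 61 members, beside 2394 of all 17869 genes to which it gave a p-value. The 12 were the same 6 and Plxna2, Plxnb1, Robo2, Sema5b, Sema6a and Unc5d, the last of which edgeR's filter had removed.

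Within each genotype, many members peaked in the library with the highest neuronal score, which also had the highest other-cell score (knockout 3 at 3.16 and heterozygous 1 at 5.27), an average over markers of neurons, radial glia, pericytes, microglia and red cells. Knockout 3 also had the highest sums of microglia, fibroblast and pericyte markers among knockout libraries. Among knockout libraries, 24 of the 51 tested members were highest in knockout 3 (47.1%, against 26.8% of all tested genes). Among heterozygous libraries, 25 were highest in heterozygous 1 (49.0%, against 27.4% of all tested genes). Of the 6 called members, Epha4, Efna2 and Sema6c peaked in heterozygous 1, and Sema3f, Epha2 and Efna4 in heterozygous 4, 3 and 2. None of the 6 peaked in knockout 3.

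**Figure D3:**
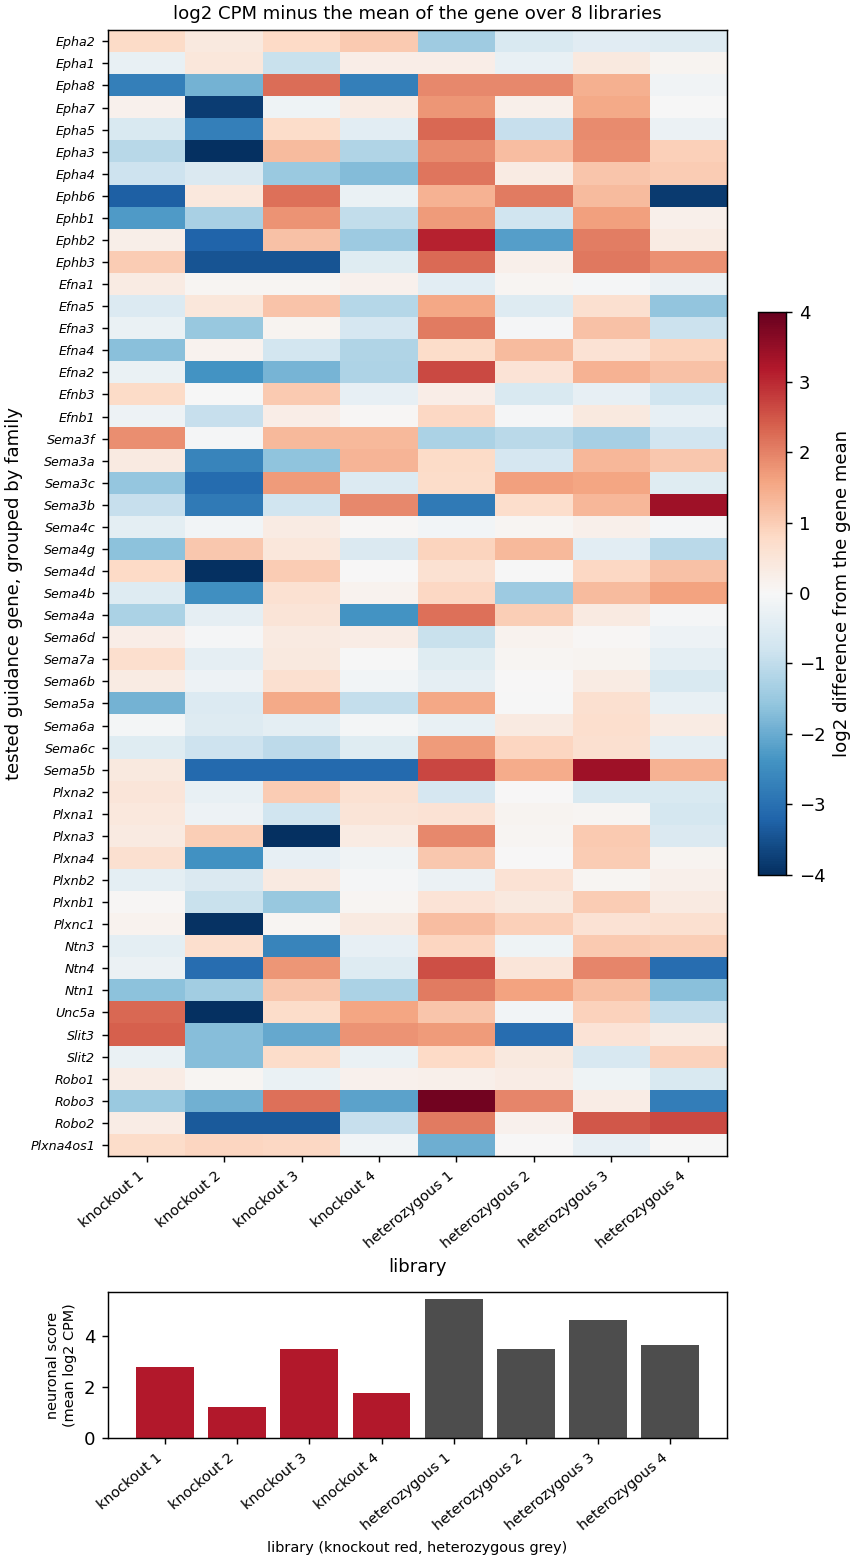
Log2 CPM of the 51 tested members (rows, grouped by family) in each library (columns, knockout left, heterozygous right), minus the gene's mean over the 8 libraries (red above it, blue below). The bars below give the neuronal score, which was 1.22 to 3.48 in knockout and 3.49 to 5.47 in heterozygous libraries. Many EphA and EphB rows are reddest in heterozygous 1 and heterozygous 3. The rows of Epha8, Ephb1 and Ephb6 are reddest in knockout 3, Epha1 in knockout 2 and Epha2 in knockout 4.

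Levels were compared between members as CPM per kb of annotated exon (GENCODE M21). Efna1 stood first in both genotypes, at 257 ± 20.2 CPM per kb in knockout and 208 ± 30.5 in heterozygous libraries. In heterozygous libraries Sema6a (20.2 ± 5.38 CPM per kb) and Efnb3 (15.4 ± 5.27) followed, which differed by less than their spread, and then Sema6d (8.33 ± 2.36), Epha2 (7.53 ± 2.02), Efna2 (7.49 ± 5.06) and Efnb1 (7.34 ± 2.60), which were also within their spread of each other. In knockout libraries Efnb3 (26.2 ± 11.2), Epha2 (21.0 ± 3.76), Sema6a (13.6 ± 2.08), Sema6d (11.1 ± 1.3) and Sema3f (10.4 ± 4.79) came after Efna1. Sema3f stood at place 6 of 51 in knockout and at place 17 in heterozygous libraries, and Efna2 at place 18 in knockout and 6 in heterozygous libraries. Epha4 stood at place 26 in knockout and 15 in heterozygous libraries.

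**Figure D4:**
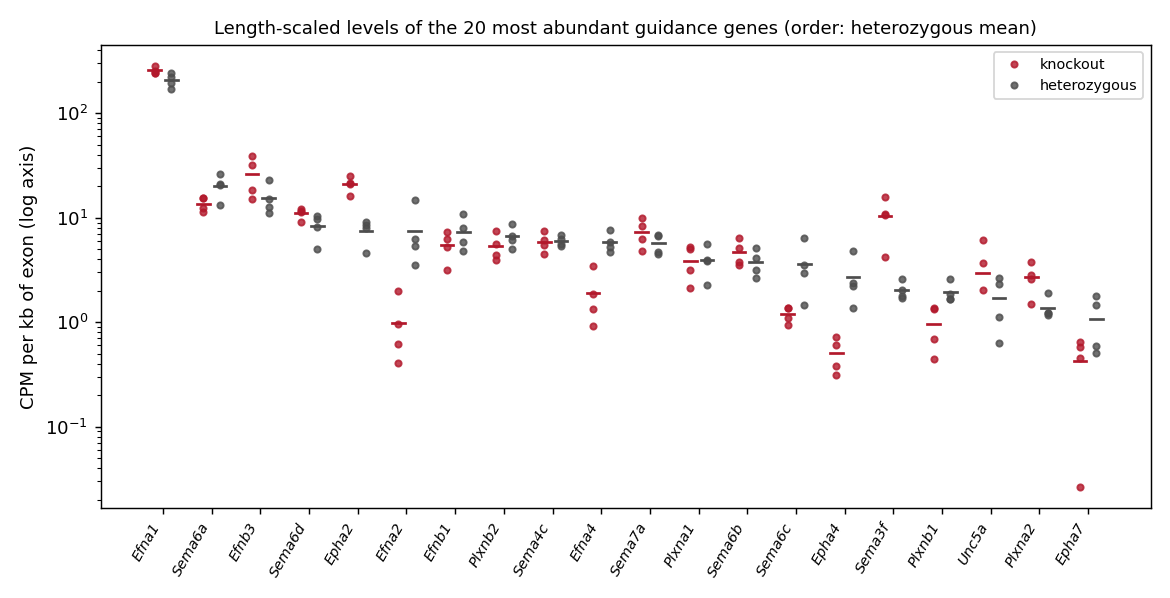
CPM per kb of exon (log axis) of the 20 members most abundant in heterozygous libraries, in 4 knockout (red, left of each pair) and 4 heterozygous (grey, right) libraries. Points are libraries and bars are means; Plxna4os1 is left out, and knockout 2 of Unc5a, at 0, cannot be drawn. Efna1 lies at 257 in knockout and 208 in heterozygous libraries, far above the rest.

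Other genes of the same pathways were read from the same fit. Of 26 co-receptors and other guidance genes, 22 were tested, 2 rose and 4 fell, beside 5.53% and 4.02% of all tested genes, with a median log2 fold change of -0.98 (all tested genes, -0.03). Nrp1, the neuropilin that pairs with plexins and VEGF receptors, rose 1.73-fold (498 ± 90.2 CPM in knockout against 288 ± 67.0 CPM in heterozygous libraries; edgeR adjusted p = 0.0335). Nrp2, chosen after its values were seen as the co-receptor of Sema3f, averaged 68.2 ± 15.5 CPM in knockout and 59.2 ± 10.9 CPM in heterozygous libraries and was not called (adjusted p = 0.555). Flrt3, a membrane protein that binds Unc5 receptors, fell 6.34-fold (3.57 ± 1.73 CPM in knockout against 22.8 ± 7.26 CPM in heterozygous libraries; adjusted p = 0.00522). Cxcl12, a chemokine, fell 1.88-fold (39.6 ± 8.29 CPM in knockout against 74.3 ± 13.9 CPM in heterozygous libraries; adjusted p = 0.0198). Nrcam, an adhesion protein of axons, fell 8.85-fold (1.03 ± 0.574 CPM in knockout against 9.32 ± 7.53 CPM in heterozygous libraries; adjusted p = 0.0290). The remaining calls were Ptk7, a receptor of planar polarity, which rose, and Draxin, a secreted guidance cue, which fell. With each of the 8 libraries left out in turn, Flrt3 was called 8 times and Cxcl12 6 times (not without knockout 4 or heterozygous 3). Nrp1 and Nrcam were called 4 times each, neither of them without knockout 1, knockout 4 or heterozygous 1, nor Nrp1 without heterozygous 4, nor Nrcam without heterozygous 3. None of these 4 was called in the fit with the neuronal score, and in the fit with the other-cell score the log2 fold change of Cxcl12 turned to 0.033.

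Of 45 intracellular effectors 43 were tested, 1 rose and 3 fell, a share near the 9.55% called over all tested genes, with a median of 0.02. Gipc1, an adaptor that binds the tail of neuropilin-1, rose 1.47-fold (447 ± 47.0 CPM in knockout against 304 ± 37.1 CPM in heterozygous libraries; edgeR adjusted p = 0.0338). Dpysl5 and Dpysl3, collapsin response mediators of neurons, fell 7.12-fold and 3.52-fold (adjusted p = 0.0136 and 0.0321), and Pak1, a kinase downstream of Rac, fell 3.26-fold (adjusted p = 0.0261). All 3 were highest in heterozygous 1. Dpysl5 was called whichever library was left out, but not in the fit with the neuronal score (log2 fold change -0.75; adjusted p = 0.460). In the fit with the other-cell score the direction turned for Dpysl5 (0.36), Pak1 (0.37) and Dpysl3 (0.80). Without knockout 1 or knockout 2 the calls of Gipc1, Dpysl3 and Pak1 were lost. Dpysl3 and Pak1 also lost theirs without knockout 4, Dpysl3 and Gipc1 without heterozygous 1 or heterozygous 3, and Gipc1 without knockout 3 or heterozygous 4. Neither Rac1 nor Rhoa, genes of small GTPases and outside the naming rule, was called (log2 fold change 0.15 and 0.13).

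Of the 5 vascular guidance genes that the rule left out, 1 was called. Plxnd1, the plexin of vessels, was at 354, 292, 298 and 334 CPM in knockout libraries 1 to 4, against 116, 201, 137 and 133 CPM in heterozygous libraries 1 to 4 (log2 fold change 1.12 ± 0.18; edgeR adjusted p = 0.00492). The groups did not overlap, and the call held whichever library was left out. In the fit with the neuronal score it was lost (log2 fold change 0.89 ± 0.26; adjusted p = 0.182, and up to 0.862 over 18 alternatives). Sema3g, Ephb4, Efnb2 and Unc5b stood at log2 fold changes of -0.97, -0.19, -0.23 and -0.03, with adjusted p = 0.0597, 0.575, 0.586 and 0.963. Sema3g, a secreted semaphorin of arteries, was called by DESeq2.

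Marker scores in the fit changed these calls. Adjusted for the neuronal score, 92 of all 13540 genes were called. Adjusted for the other-cell score, edgeR called 0 genes, with 915 of them at an unadjusted p under 0.05. DESeq2 was run on genotype alone and called 2394. Under that score the log2 fold changes were 3.46 ± 0.84 for Sema3f, 1.01 ± 0.58 for Epha2, -1.21 ± 1.19 for Epha4, -2.92 ± 1.19 for Efna4, -0.91 ± 1.10 for Sema6c and -0.08 ± 1.36 for Efna2. The other-cell score was 1.99 to 3.16 in knockout and 4.33 to 5.27 in heterozygous libraries, so genotype and this score cannot be told apart. The neuronal score did not overlap between genotypes either, by a narrow margin (at most 3.48 in knockout, at least 3.49 in heterozygous libraries). Fits with it share this limit, for calls lost and for the call gained by Efnb3.

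**Figure D5:**
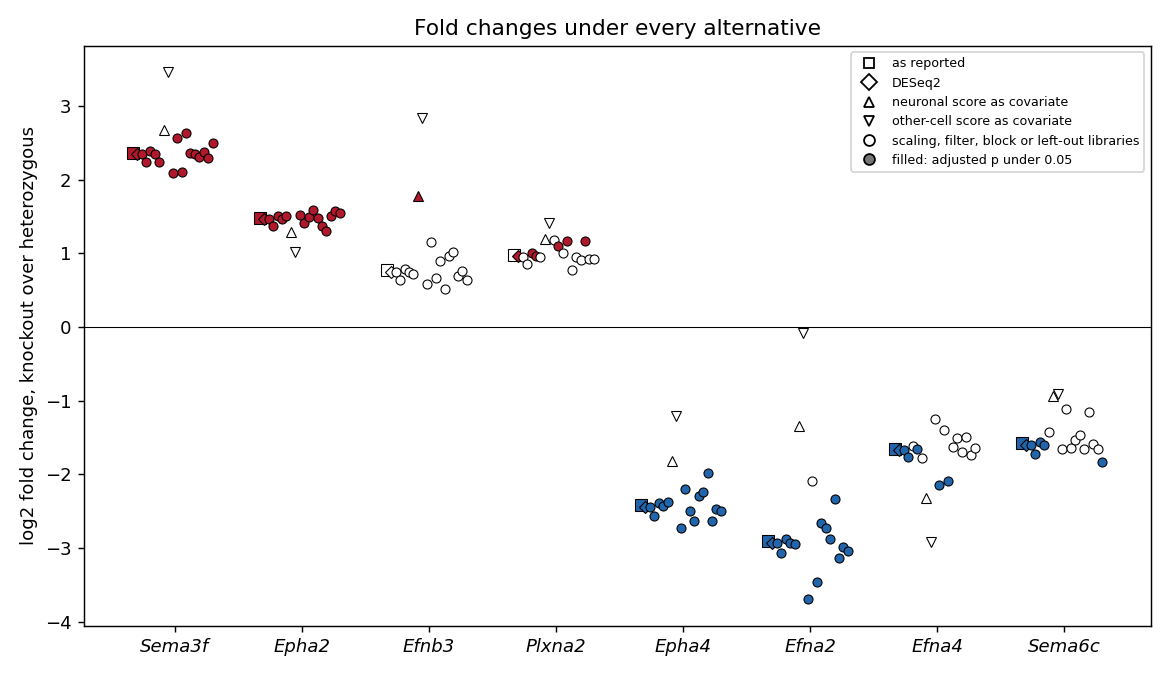
Log2 fold change of 8 guidance genes in the reported fit (squares) and in 18 alternatives (other marks). Filled marks have an adjusted p under 0.05. Sema3f, Epha2 and Epha4 keep their direction in every alternative, while Efna2 reaches -0.08 with the other-cell score.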

How the data were processed

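Per the series' design text, polyA-selected RNA of sorted cells was sequenced on a HiSeq4000. The authors deposited a table of raw counts, with genes by symbol and 1 column for each of 8 libraries. As upstream tools and build, the submitters' processing notes give TopHat2 (0.7), Cufflinks (2.2.1) and mm10; how reads were counted, and whether by strand, are points not given in the sources used here. Depth per library is in the report, and counting error is largest for genes under 10 CPM.

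In R 4.3.3, filterByExpr of edgeR 4.0.16 (minimum count 10, total 15) left 13540 of 24421 genes. After TMM scaling, knockout was tested against heterozygous with edgeR's robust quasi-likelihood test without covariates. A call is a Benjamini-Hochberg adjusted p under 0.05 over all tested genes. CPM used scaled library sizes, and log2 CPM a prior count of 2. The closest pair of libraries in a group had a chi-square of 28.9 per degree of freedom, and all 8 were used as separate samples. That value does not show that they came from separate embryos. Gene coordinates and exon lengths are from GENCODE M21 on GRCm38, the assembly of mm10.

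The members and lists were chosen with earlier results of these data known. Named with values were the called members, the 2 most abundant tested members of each family, up to 4 called genes of each pathway list and the 5 genes left out; other names were chosen after their values were seen. Alternatives were DESeq2 1.42.0, other scalings and filters, the replicate number as a block, 2 marker scores as covariates, and left-out libraries.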

Additional observations from a re-analysis of the deposited data

Results flagged for a closer look

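Among 80 groups of 4 libraries of the named genes, 7 held a library set far apart from its group by Dixon's criterion, which chance meets in about 5% of groups. Ephb1 and Ntn1 were at 12.8 and 4.33 CPM in knockout 3, with the other 3 knockout libraries at 0.664 to 1.76 and 0.562 to 0.779 CPM. Sema3b was at 2.89 CPM in knockout 4, with the others at 0 to 0.342 CPM, and Nrcam at 0.174 CPM in knockout 2, with the others at 1.20 to 1.38 CPM. Plxna2 was at 32.5 CPM in heterozygous 2, with the other heterozygous libraries at 19.9 to 20.9 CPM. Pak1 was at 62.1 CPM in heterozygous 1, with the others at 17.5 to 24.9 CPM, and Sema3g at 16.0 CPM in heterozygous 1, with the others at 24.7 to 25.4 CPM.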

How the results depend on the processing

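Counts of calls are given for all genes, the members, the 22 tested co-receptors, the 43 tested effectors and the 5 vascular genes, in this order; the reported fit gave 1293, 6, 6, 4 and 1. DESeq2 gave 2394, 12, 8, 8 and 2. RLE size factors gave 1288, 6, 5, 4 and 1. Library size alone gave 1264, 6, 5, 3 and 2; of the calls over all genes 42.6% were higher in knockout, against 57.9% in the reported fit and 48.2% with DESeq2, and genes had a median log2 fold change of -0.15 there, against -0.03. No filter gave 1200, 6, 5, 3 and 1, and a minimum count of 30 gave 1350, 7, 6, 4 and 2. The neuronal score as covariate gave 92, 1, 1, 0 and 0, and the other-cell score 0, 0, 0, 0 and 0. Leaving out together knockout 1 and heterozygous 2, the libraries nearly without Xist, gave 300, 5, 2, 1 and 1, and leaving out knockout 2 and heterozygous 1, with the lowest and the highest neuronal score, gave 842, 5, 3, 1 and 1; Sema3f, Epha2 and Epha4 were called in both fits. Single libraries left out gave 579 to 1347, 4 to 6, 2 to 6, 1 to 4 and 1 to 1; leaving out knockout 1 gave the 579, while 625 genes were called without knockout 4, 787 with heterozygous 1 left out and 790 with heterozygous 3 left out, and 4 members were called without knockout 4 or heterozygous 3.

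Same-numbered libraries deviated together with r = 0.058, 0.21, -0.046 and 0.021 for numbers 1 to 4. Differently numbered libraries were not compared in this way, so these values do not settle whether the libraries are paired. With the replicate number as a block, calls were 868, 5, 5, 3 and 1; Efna4 (adjusted p = 0.0580) and Sema6c (0.0698) were not called and Sema5b was.

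The 6 called members kept their direction in all 18 alternatives. Log2 fold changes that changed sign belonged to genes not called in the reported fit, except 4 under the other-cell score. With library size alone Robo1 was at -0.0054, and without a filter Plxna1 at 0.016. With the neuronal score Efnb1 was at 0.48, Ephb1 at 1.41, Ephb6 at 0.33, Plxna1 at 0.21, Sema4c at 0.063, Sema4d at 0.66, Slit2 at 0.043 and Unc5b at 0.20. With the other-cell score Efnb1 was at 0.82, Ephb1 at 3.08, Ephb6 at 0.75, Ntn1 at 0.93, Robo1 at -0.076, Sema4d at 2.46, Slit2 at 1.57 and Unc5b at 0.68, and of the called genes Cxcl12 at 0.033, Dpysl5 at 0.36, Pak1 at 0.37 and Dpysl3 at 0.80. Without knockout 1 and heterozygous 2, Ephb6 was at 0.43, Sema4c at 0.096 and Slit3 at -0.56; without knockout 2 and heterozygous 1, Efnb1 was at 0.0071, Plxna1 at 0.29 and Unc5b at 0.0094. Over single left-out libraries the ranges were -0.16 to 0.087 for Sema4c, -0.16 to 1.37 for Slit3, -0.20 to 0.21 for Plxna1, -0.18 to 0.16 for Unc5b, -1.70 to 0.029 for Ephb6 and -0.017 to 0.25 for Robo1. The causes were not tested. Depth limits the members under 10 CPM, whose median SE was 0.91, and the 10 members not tested.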
